A study of Mus musculus with 9 samples.

Results

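The genes examined here encode proteins of the cardiac sarcomere and of its Z-disc. A list of 35 genes was used, and a genomic region was given to a gene when it touched the RefSeq span of that gene extended by 10 kb on each side. On this rule 34 of the 35 genes held at least 1 region, and together they held 215 of the 16884 regions tested. The remaining gene, Mybphl, which encodes a protein related to myosin binding protein H, held none. Heart ventricle had been profiled by sequencing of chromatin precipitated with an antibody to the nuclear receptor NR4A2 (ChIP-seq), in samples of 3 Nr4a2-icTg mice and 3 αMHC-MerCreMer mice, called NR4A2 hearts and control hearts from here on. In the NR4A2 hearts an Nr4a2 knock-in at the ROSA26 locus is switched on by a Cre recombinase that depends on tamoxifen and is driven by the Myh6 promoter, which is active in cardiomyocytes. Control littermates carried that Cre without the knock-in. Both groups were given tamoxifen at 40 mg/kg by a single intraperitoneal injection at 8 to 9 weeks of age and were studied on day 3. The 3 other libraries of the series, which are an antibody test, its input and a pooled input, were not analysed here, so enrichment over input is not given. The tissue is whole ventricle, so a change in the share of cells that carry the signal and a change of signal per cell cannot be told apart.

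The sarcomere is the contractile unit of striated muscle. Myosin thick filaments, held in register at the M-band, pull on actin thin filaments, which are anchored at the Z-disc, and calcium binding to the troponin complex on tropomyosin allows the motors to engage. The Z-disc also holds proteins that sense strain, and pointed-end and barbed-end caps set the length of the actin filaments. NR4A2 is an orphan nuclear receptor of the NR4A family that can bind DNA as a monomer at an extended AGGTCA element. ChIP-seq reports where the receptor, or chromatin crosslinked with it, was pulled down, and it does not measure the expression of the gene nearby.

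Signal at the sarcomere genes differed between the groups in both directions. Csrp3 and Actc1 were the strongest genes with more signal in NR4A2 hearts, and Mybpc3, Myl3 and Tnnc1 had less. Of the 215 regions, 38 (17.7%) were higher in NR4A2 hearts and 10 (4.65%) were lower, where 14.7% of all 16884 regions were called higher and 3.17% lower (limma on log2(CPM + 1), Benjamini-Hochberg adjusted p under 0.05 over all regions). The other 167 regions were not called. The share called higher was therefore close to that of all regions. The median log2 fold change, NR4A2 over control, was 0.26 over the 215 regions and -0.06 over all regions, and 60.9% of the sarcomere regions had a fold above 0, against 45.3% of all regions. In 35 of the 38 higher regions and in 10 of the 10 lower ones the 3 NR4A2 hearts did not overlap the 3 control hearts. The groups also did not overlap in 29 of the 167 regions not called. Calls favour regions whose groups lie apart, so these counts are no separate evidence. The share without overlap among all regions was not counted.

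Counted by gene, a higher region was found at 18 members (52.9%) and a lower region at 6 (17.6%), where 14.2% of all 11154 genes with a region held a higher one and 6.25% a lower one. These shares are not comparable as they stand, because a member held 6.32 regions on average and the average gene 1.33. Signal was therefore also summed over all regions of each gene, which gives each gene a single value. Members and other genes were still not on equal terms for a call. The median summed signal was 319 CPM at members and 81.7 CPM over all genes with a region. Summed signal was higher in NR4A2 hearts at 10 members (29.4%) and lower at 3 (8.82%), where 6.94% of all genes were called higher and 3.15% lower. The 10 were Csrp3, Palld, Nebl, Ankrd23 and Actn2 of the Z-disc, Obsl1 and Myom1 of the M-band, Actc1 of the thin filament, and Tmod1 and Fhod3, which act on actin filaments. The 3 lower genes were Myl3, Mybpc3 and Tnnc1, which belong to the thick and thin filaments. The median log2 fold change of summed signal was 0.15 over the members and -0.13 over all genes.

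These calls depend on whether the libraries are scaled for depth. Rescaling by the median ratio over all regions kept 47 of the 48 calls. On the recovered reads edgeR kept 42 and DESeq2 34. The deposited values are CPM, which are reads scaled to a common library size. The size used for each library was its reads in the regions times a factor of 0.991 to 1.01. The source of that factor is not given. A change shared by all regions is therefore not visible in these values. With the recovered reads left unscaled, 6 regions were called higher and 0 lower in place of 38 and 10, and 5 of the 48 original calls were among them. Those 5 regions lay at Obsl1, Speg, Myoz2, Palld and Myom1. Leaving out NR4A2 mouse 3 gave 24 higher and 4 lower, leaving out control mouse 1 gave 34 and 5, and leaving out control mouse 3 gave 33 and 16. Calls made in the full set and in every set of 5 mice numbered 15 higher and 3 lower.

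**Figure D1:**
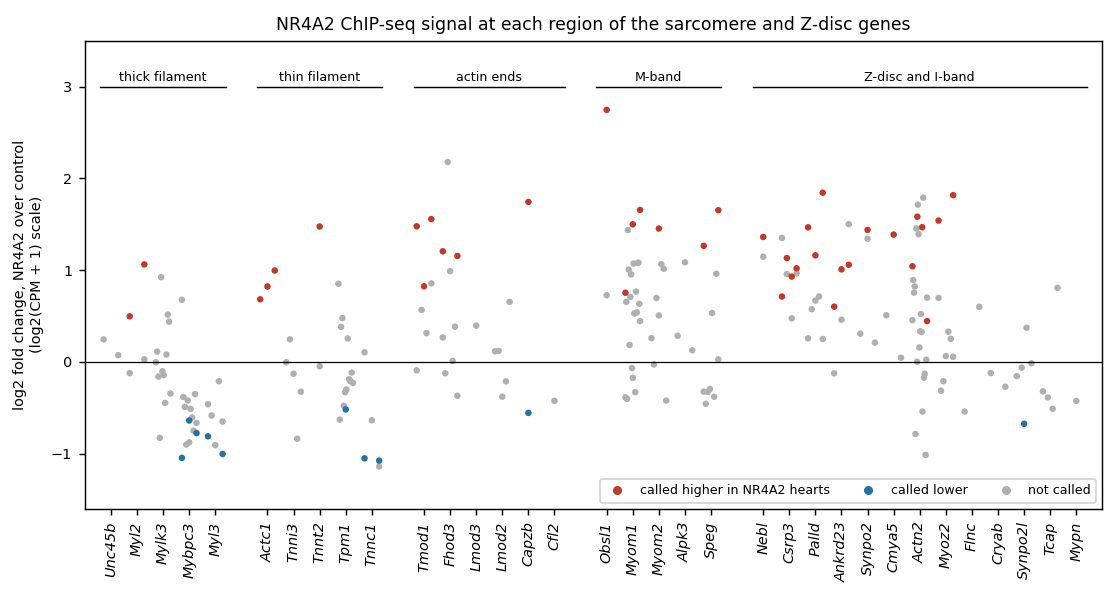
Log2 fold change (NR4A2 over control hearts, log2(CPM + 1) scale) of each of the 215 regions, 1 point per region, grouped by gene and by role in the sarcomere; red points were called higher, blue points lower and grey points not called by limma. The points of Mybpc3, Myl3 and Tnnc1 lie mostly below 0, and those of Csrp3, Palld and Actc1 all lie above 0.

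The Z-disc and I-band held 19 of the 38 higher regions. Of 78 regions at 13 genes, 19 (24.4%) were higher and 1 was lower, with a median log2 fold change of 0.51. The leading gene was Csrp3, which encodes muscle LIM protein, a Z-disc protein tied to the sensing of strain. A region of 9115 bp at chr7:48839157-48848271 (GRCm38), which runs from just upstream of Csrp3 into the gene over both annotated starts, had 1074, 1315 and 1172 CPM in the NR4A2 hearts and 752, 519.7 and 505 CPM in the control hearts. The lowest NR4A2 heart lay above the highest control heart. The means were 1187 ± 121 and 592 ± 139 CPM (SD, n = 3 each), a log2 fold change of 1.02 ± 0.15 (SE; limma adjusted p = 9.4e-08), and no set of 5 mice gave an adjusted p above 0.000265. Every one of the 8 regions at Csrp3 had a fold above 0, and 4 were called higher. The called regions lay over the starts, inside the gene and over its 3′ end.

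The sequence upstream of the Csrp3 start is shown because the called region reaches it. It is the 250 bases before the RefSeq start (GRCm38.p6, chr7:48848052-48848301, minus strand, written 5′ to 3′ in the direction of the gene). It held 4 matches to the E-box CANNTG, which 66.2% of all 32851 RefSeq promoter windows also held at least once, and no match to any of the other 6 motifs searched.
Csrp3 upstream: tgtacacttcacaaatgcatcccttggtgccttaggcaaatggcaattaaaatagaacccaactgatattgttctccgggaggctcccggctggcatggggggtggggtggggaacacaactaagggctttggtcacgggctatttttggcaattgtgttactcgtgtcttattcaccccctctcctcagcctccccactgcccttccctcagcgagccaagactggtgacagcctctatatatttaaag

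Ankrd23 encodes a muscle ankyrin repeat protein of the I-band that binds titin. At chr1:36534485-36535885, over an annotated start of the gene, signal was 107.9, 94.6 and 143 CPM in the NR4A2 hearts and 50.2, 55.5 and 56.1 CPM in the control hearts. The groups did not overlap, and the 3 control hearts lay close together. The log2 fold change was 1.06 ± 0.23 (SE; limma adjusted p = 0.000241). Of the 6 regions at Ankrd23, 3 were called higher, and the nearest gene of 1 of these was Cnnm3. The window upstream of this start (chr1:36535740-36535989, minus strand) is shown with its match to the TEAD motif CATTCC in capitals, 120 bases before the start; 12.6% of all windows held that motif.
Ankrd23 upstream: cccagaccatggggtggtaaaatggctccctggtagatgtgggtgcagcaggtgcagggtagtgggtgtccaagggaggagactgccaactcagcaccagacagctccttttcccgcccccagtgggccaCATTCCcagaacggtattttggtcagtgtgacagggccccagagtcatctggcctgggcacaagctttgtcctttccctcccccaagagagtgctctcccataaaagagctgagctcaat

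Actn2 encodes α-actinin 2, which crosslinks actin filaments at the Z-disc. Its 24 regions were the most of any member, and 19 of them had a fold above 0, of which 4 were called higher. The region with the smallest p, at chr13:12283655-12284413 inside the gene, had 72.6, 88.3 and 65.6 CPM in the NR4A2 hearts and 32.8, 51.6 and 27.2 CPM in the control hearts. All NR4A2 hearts lay above all control hearts, with a log2 fold change of 1.04 ± 0.28 (SE; limma adjusted p = 0.0035). Summed over the gene, signal was 989 ± 58 CPM in NR4A2 hearts and 704 ± 142 CPM in control hearts (SD, n = 3 each). That call (log2 fold change 0.51 ± 0.13 SE, limma adjusted p = 0.00906) was lost without control mouse 3, with an adjusted p of 0.0797.

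Nebl encodes nebulette, a cardiac protein that links actin filaments to the Z-disc. A region inside the gene, at chr2:17523931-17524479, had 43.9, 66.2 and 65.6 CPM in the NR4A2 hearts and 17.4, 20.4 and 29 CPM in the control hearts. It lay 181 kb from the nearer end of the gene span. The groups were well apart, and the log2 fold change was 1.36 ± 0.33 (SE; limma adjusted p = 0.00119). The other region at Nebl had a log2 fold change of 1.15 and was not called (limma adjusted p = 0.128). None of the 4 annotated Nebl promoters was touched by a region. The promoter window at chr2:17526081-17526380, on the minus strand, lies close upstream of the called region.

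Palld encodes palladin, an actin-bundling partner of α-actinin. Its 8 regions all had folds above 0 and 3 were called higher, and summed signal was 219 ± 44 CPM in NR4A2 hearts and 120 ± 24.5 CPM in control hearts (SD, n = 3 each; log2 fold change 0.87 ± 0.17 SE, limma adjusted p = 0.000665). Myoz2, which encodes the calcineurin-binding Z-disc protein calsarcin 1, had 2 higher regions downstream of the gene. The stronger gain, at chr3:123002399-123002733, had 67.8, 53.6 and 39.1 CPM in the NR4A2 hearts and 10.2, 13.6 and 19.9 CPM in the control hearts. Summed Myoz2 signal was not called (log2 fold change 0.37, limma adjusted p = 0.082). Synpo2, encoding the actin-binding protein myopodin, and Cmya5, encoding the desmin partner myospryn, each had 1 higher region, with log2 fold changes of 1.44 and 1.39, and both of these calls were lost with some mice left out.

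Synpo2l was the only gene of the Z-disc and I-band group with a region called lower. It encodes CHAP, a Z-disc protein related to myopodin. A region at its end, chr14:20658800-20660620, had 126, 139 and 60.5 CPM in the NR4A2 hearts and 184, 149.9 and 157 CPM in the control hearts. The groups did not overlap, but NR4A2 mouse 3 was far below the other two, and without that mouse or control mouse 1 the region was not called, nor was it with DESeq2. The log2 fold change was -0.67 ± 0.21 (SE; limma adjusted p = 0.0198, and 0.368 at most with a mouse left out).

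The thin filament genes divided by gene. Of their 28 regions, 4 were higher and 3 lower, with a median log2 fold change of -0.16. Actc1, the α-actin of heart muscle, had 3 regions and all 3 were called higher. The region with the smallest p, upstream of the gene at chr2:114055737-114058747, had 317, 276 and 259 CPM in the NR4A2 hearts and 186, 164 and 92.3 CPM in the control hearts. Every NR4A2 heart lay above every control heart, and the log2 fold change was 1.00 ± 0.19 (SE; limma adjusted p = 4.14e-05). The region that covers the whole gene, 8371 bp at chr2:114045108-114053478, had 3059, 2511 and 1987 CPM in the NR4A2 hearts and 1717, 1893 and 1135 CPM in the control hearts. Its log2 fold change was smaller, 0.68 ± 0.16 (SE; limma adjusted p = 0.00137), and without NR4A2 mouse 1, the highest of the 6, the adjusted p was 0.0534. Summed Actc1 signal was 2968 ± 581 CPM in NR4A2 hearts and 1823 ± 452 CPM in control hearts (SD, n = 3 each; log2 fold change 0.72 ± 0.16 SE, limma adjusted p = 0.00307).

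Tnnc1, which encodes the cardiac and slow troponin C that binds calcium, went the other way. At chr14:31213039-31214786, downstream of the gene, signal was 85.9, 102 and 70.6 CPM in the NR4A2 hearts and 208, 235 and 121 CPM in the control hearts. The highest NR4A2 heart lay below the lowest control heart, and the log2 fold change was -1.07 ± 0.20 (SE; limma adjusted p = 4.15e-05). Of the 5 regions at Tnnc1, 4 had folds below 0, and the second called region lay over the start, with 41.1, 41 and 25.2 CPM in the NR4A2 hearts and 63.5, 73 and 85.1 CPM in the control hearts. Without NR4A2 mouse 3 its adjusted p was 0.0531. The region with a fold above 0, 0.11, overlapped the neighbouring gene Nisch. Summed signal at Tnnc1 fell to 251 ± 51.9 CPM in NR4A2 hearts, against 424 ± 89.5 CPM in control hearts (SD, n = 3 each; log2 fold change -0.75 ± 0.16 SE, limma adjusted p = 0.00108).

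The windows upstream of Actc1 (chr2:114052876-114053125, minus strand) and Tnnc1 (chr14:31208062-31208311, plus strand) are shown as 2 thin filament promoters under called regions of opposite direction. Capitals mark the match to the SRF CArG box in Actc1, 47 bases before the start, and to the TEAD motif on the other strand in Tnnc1, 58 bases before the start. A CArG box was found in 1.47% of all windows.
Actc1 upstream: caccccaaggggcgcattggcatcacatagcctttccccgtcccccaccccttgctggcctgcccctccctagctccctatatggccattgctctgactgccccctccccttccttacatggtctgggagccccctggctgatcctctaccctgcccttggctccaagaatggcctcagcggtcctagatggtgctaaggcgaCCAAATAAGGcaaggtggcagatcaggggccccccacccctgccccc
Tnnc1 upstream: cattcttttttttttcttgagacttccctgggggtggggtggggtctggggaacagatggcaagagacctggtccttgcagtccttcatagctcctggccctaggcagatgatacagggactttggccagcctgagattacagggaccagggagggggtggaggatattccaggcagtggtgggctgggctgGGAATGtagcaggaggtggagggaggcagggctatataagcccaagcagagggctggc

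Tpm1, encoding α-tropomyosin, and Tnnt2, encoding cardiac troponin T, carried strong signal in both groups with little or no called difference. The strongest region at Tpm1, 6825 bp over the start at chr9:67042845-67049669, had 935, 752 and 824 CPM in the NR4A2 hearts and 1164, 1012 and 791 CPM in the control hearts. The groups overlapped, and the log2 fold change was -0.23 ± 0.15 (SE; limma adjusted p = 0.312). A weaker region inside Tpm1, chr9:67029794-67033887, had 256, 246 and 227 CPM in the NR4A2 hearts and 362, 378 and 308 CPM in the control hearts. It was called lower (log2 fold change -0.52 ± 0.16 SE, limma adjusted p = 0.0122), and this call was lost without NR4A2 mouse 3, control mouse 1 or control mouse 2.

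At Tnnt2 a single region of 23181 bp, chr1:135835835-135859015, spanned the whole gene. It had 3222, 3466 and 2275 CPM in the NR4A2 hearts and 3711, 3157 and 2386 CPM in the control hearts. The groups overlapped almost fully, with a log2 fold change of -0.05 ± 0.15 (SE; limma adjusted p = 0.877). The higher region assigned to Tnnt2 was small, 42.3 ± 8.9 CPM in NR4A2 hearts and 16 ± 8.6 CPM in control hearts (SD, n = 3 each), and lay upstream with Lad1 as its nearest gene; it was not called without NR4A2 mouse 1. Tnni3, encoding the cardiac inhibitory troponin, had no called region. Its strongest region, chr7:4515492-4518445, had 573, 575 and 483 CPM in the NR4A2 hearts and 634, 547 and 462 CPM in the control hearts. That region also overlapped Tnnt1, and the values of the groups were interleaved.

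The thick filament and its regulators were the group with the lowest median over regions, -0.38 on the log2 scale, with 2 higher and 5 lower regions among 39. All 5 lower regions lay at Mybpc3 and Myl3, which held 14 and 7 of the 39 regions. Taken per gene, the median log2 fold change of summed signal in this group was 0.05. Mybpc3 encodes cardiac myosin binding protein C, which sets the position of the myosin heads. Of its 14 regions, 13 had folds below 0 and 3 were called lower. The region with the smallest p, chr2:91136709-91139270, lay 193 bp beyond the end of Mybpc3 and overlapped its neighbour Madd. It had 186, 222 and 155 CPM in the NR4A2 hearts and 356, 309 and 295 CPM in the control hearts, with no overlap between groups (log2 fold change -0.77 ± 0.16 SE, limma adjusted p = 0.000204). Inside the gene, the lower region at chr2:91124325-91125626 had a mean of 47.4 ± 20.1 CPM in NR4A2 hearts and 95 ± 23.5 CPM in control hearts (SD, n = 3 each), a call that was lost without NR4A2 mouse 1. Summed over the gene, Mybpc3 signal was 647, 755 and 668 CPM in the NR4A2 hearts and 1211, 1031 and 968 CPM in the control hearts. The groups were separate, and the log2 fold change was -0.63 ± 0.12 (SE; limma adjusted p = 0.000457).

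Myl3 encodes the ventricular essential light chain of myosin, and all 7 of its regions had folds below 0. At chr9:110765026-110767479, inside the gene, signal was 132, 161 and 119 CPM in the NR4A2 hearts and 337, 195 and 208 CPM in the control hearts. The groups did not overlap, and control mouse 1 stood above the other two control mice. The log2 fold change was -0.81 ± 0.18 (SE; limma adjusted p = 0.000493). Summed Myl3 signal was 601 ± 124 CPM in NR4A2 hearts and 934 ± 149.7 CPM in control hearts (SD, n = 3 each; log2 fold change -0.65 ± 0.14 SE, limma adjusted p = 0.00167).

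Myl2, which encodes the regulatory light chain of the ventricle, differed from its partner Myl3. Most of its signal lay in a region of 13454 bp, chr5:122100201-122113654, with 2676, 2862 and 2790 CPM in the NR4A2 hearts and 3204, 2864 and 2192 CPM in the control hearts. The NR4A2 hearts fell within the spread of the control hearts (log2 fold change 0.03 ± 0.14 SE, limma adjusted p = 0.918). This region also overlapped Ccdc63. A much weaker region inside the gene, chr5:122098089-122098906, had 66.8, 82 and 109.7 CPM in the NR4A2 hearts and 38.9, 36 and 45.3 CPM in the control hearts. It was called higher (log2 fold change 1.06 ± 0.26 SE, limma adjusted p = 0.00141), and without NR4A2 mouse 3, the highest, the adjusted p was 0.0524. The region over the Myl2 starts was called higher as well, with a log2 fold change of 0.50, and this call was lost without NR4A2 mouse 3 or control mouse 1 or 2. The remaining members of this group were Mylk3, the cardiac kinase of the regulatory light chain, with 12 regions and no call, and Unc45b, a myosin chaperone, with 2 regions and no call. The strongest Mylk3 region, chr8:85380411-85381431, had 78.3, 104 and 104.7 CPM in the NR4A2 hearts and 65.6, 74.9 and 68.8 CPM in the control hearts. These groups did not overlap, but the difference was not called (log2 fold change 0.44 ± 0.22 SE, limma adjusted p = 0.178).

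**Figure D2:**
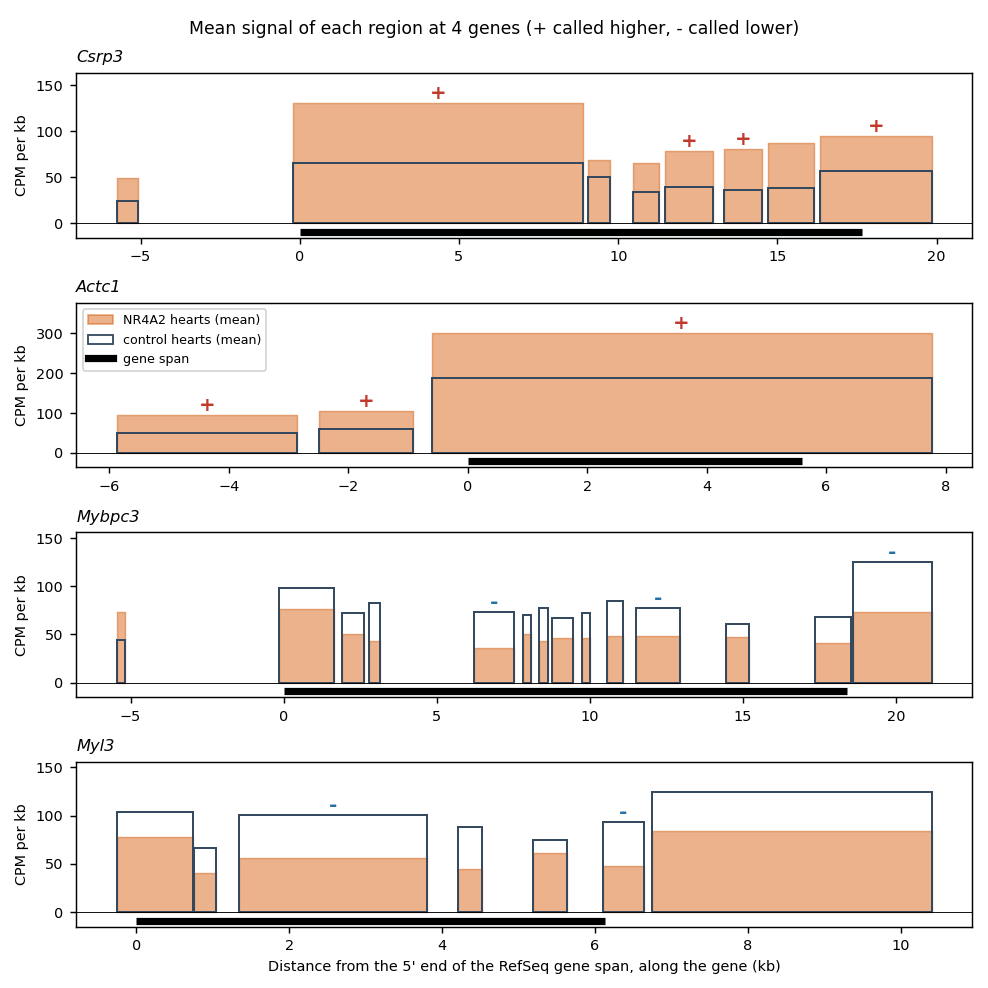
Mean signal of each region, in CPM per kb of region, along Csrp3, Actc1, Mybpc3 and Myl3, against the distance in kb from the 5′ end of the gene; filled bars are the mean of 3 NR4A2 hearts, open outlines the mean of 3 control hearts, the black line is the gene span, and + or - marks a region called higher or lower. The filled bars stand above the outlines at all 8 Csrp3 and all 3 Actc1 regions, and below them at 13 of 14 Mybpc3 and all 7 Myl3 regions.

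The M-band genes had no lower region. Of 45 regions at 5 genes, 7 (15.6%) were higher, where 14.7% of all regions were called higher and 3.17% lower. The median log2 fold change over these regions, 0.63, was the highest of the 5 role groups, and Myom1 held 22 of the 45. Taken per gene, the median for summed signal was 0.45, below the 0.51 of the Z-disc and I-band group. Obsl1, encoding the cytoskeletal linker obscurin-like 1, carried the highest fold of any called member region. The region, of 267 bp, lay at chr1:75511459-75511725, 4.97 kb upstream of Obsl1, and its nearest gene was Inha. It had 37.2, 44.1 and 56.8 CPM in the NR4A2 hearts and 7.17, 3.89 and 7.24 CPM in the control hearts. The control values rest on 7, 4 and 4 reads. The log2 fold change was 2.75 ± 0.47 (SE; limma adjusted p = 3.78e-06), and the adjusted p was 0.00215 at most with a mouse left out. The region over the start of Obsl1 itself was not called (log2 fold change 0.73, limma adjusted p = 0.175). The call on summed Obsl1 signal therefore was lost when regions were assigned to the gene span alone or to the nearest gene only.

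Myom1 encodes myomesin 1, which crosslinks thick filaments at the M-band. It had 22 regions, 17 with folds above 0 and 3 called higher, and summed signal of 746 ± 108 CPM in NR4A2 hearts and 531 ± 35.2 CPM in control hearts (SD, n = 3 each). The log2 fold change of 0.48 ± 0.13 (SE; limma adjusted p = 0.00906) was not called without NR4A2 mouse 3 or control mouse 2. Its relative Myom2 had 1 higher region of 8 (log2 fold change 1.45), a call that was lost without NR4A2 mouse 2 or 3. Speg encodes a kinase of the junction between sarcomere and sarcoplasmic reticulum. Its 2 higher regions, with log2 fold changes of 1.27 and 1.65, lay between Speg and Des, with Des, the gene of the intermediate filament desmin, as the nearest gene. The regions inside Speg were not called. Alpk3, encoding an α-kinase linked to cardiomyopathy, had 3 regions with folds above 0 and no call.

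Genes that act on the ends and turnover of actin filaments gave 6 higher regions (24%) and 1 lower among 25, with a median log2 fold change of 0.38. Tmod1 encodes tropomodulin 1, the cap of the pointed end. It had 3 higher regions of 7, all inside the gene and over 20 kb from its start, and the region over its start had a log2 fold change of -0.09. Summed Tmod1 signal was 402, 367 and 317 CPM in the NR4A2 hearts and 225.4, 224.8 and 279 CPM in the control hearts, without overlap (log2 fold change 0.57 ± 0.14 SE, limma adjusted p = 0.00411). The summed calls at Tmod1, Fhod3 and Myom1 were lost when only regions of at least median signal were used. Fhod3, a formin of the cardiac sarcomere, had 2 higher regions of 9 inside the gene. Its summed signal was 279.7 ± 52.6 CPM in NR4A2 hearts and 196 ± 20.3 CPM in control hearts (SD, n = 3 each; log2 fold change 0.50 ± 0.15 SE, limma adjusted p = 0.0257), a call that was lost without NR4A2 mouse 2 or control mouse 3.

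Capzb, which encodes the β subunit of the barbed-end cap CapZ, was the only member with calls in both directions. The region over its 5′ end, chr4:139192338-139193320, had 100.3, 85.1 and 87 CPM in the NR4A2 hearts and 125, 142 and 134 CPM in the control hearts. A small region inside the gene, chr4:139242626-139242871, had 29.6, 18.9 and 30.3 CPM in the NR4A2 hearts and 10.2, 8.76 and 3.62 CPM in the control hearts. Both pairs of groups were separate, with log2 fold changes of -0.55 ± 0.20 and 1.74 ± 0.53 (SE; limma adjusted p = 0.0384 and 0.0115), and both calls were lost with some mice left out. Lmod2, encoding the cardiac leiomodin that lengthens thin filaments, had strong signal and no call. Its strongest region, chr6:24597547-24604763, had 726, 944 and 798 CPM in the NR4A2 hearts and 949.8, 696 and 649.8 CPM in the control hearts. The groups overlapped over most of their range. Lmod3 and Cfl2, which encode a further leiomodin and muscle cofilin, held 1 region each and were not called.

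**Figure D3:**
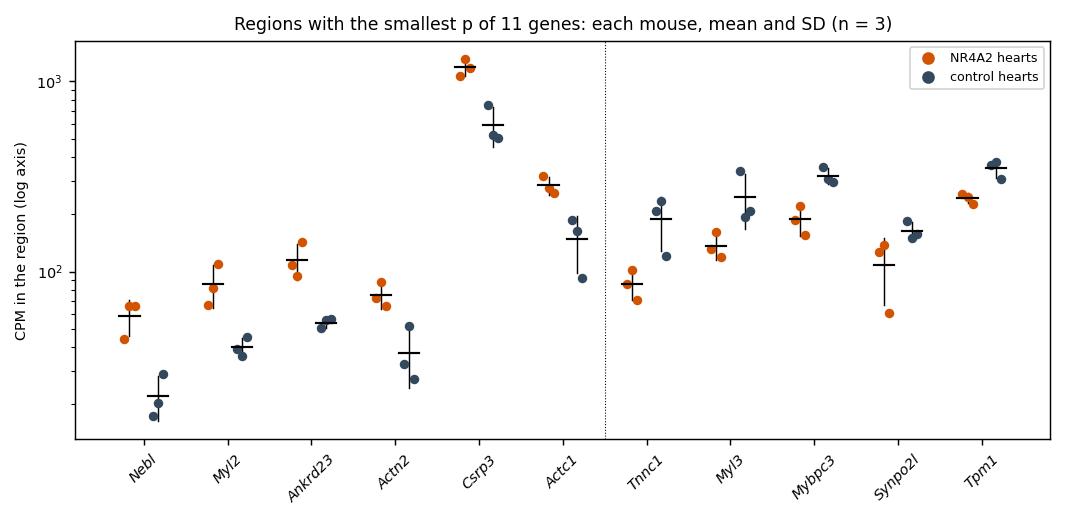
CPM of each mouse in the region with the smallest p of 11 genes, on a log axis; orange points are the 3 NR4A2 hearts and dark points the 3 control hearts, with the mean as a horizontal line and the SD as a vertical bar. NR4A2 hearts lie above control hearts at the 6 genes left of the dotted line and below them at the 5 genes right of it, with no overlap in any pair.

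Members without a called region were not without signal. Tcap, encoding telethonin, which joins titin molecules at the Z-disc, held a region at chr11:98382958-98387223 with 751, 1004 and 565 CPM in the NR4A2 hearts and 1311, 895 and 813 CPM in the control hearts. The groups overlapped, and the log2 fold change was -0.39 ± 0.18 (SE; limma adjusted p = 0.142). This region also overlapped Pnmt. Cryab encodes the small heat shock protein αB-crystallin, a chaperone of the Z-disc. Its strongest region, chr9:50752259-50754323, had 190.01, 206 and 174 CPM in the NR4A2 hearts and 239.8, 202 and 181 CPM in the control hearts, which overlapped, and it also overlapped Hspb2. Flnc, encoding the actin crosslinker filamin C, had 2 regions with log2 fold changes of -0.54 and 0.60, and Mypn, encoding myopalladin, had 1 region of 15.8 ± 9.3 CPM in NR4A2 hearts and 19 ± 1.3 CPM in control hearts (SD, n = 3 each). Neither was called. In all, 11 members with a region had no call in either direction: Mylk3, Unc45b, Tnni3, Lmod2, Lmod3, Cfl2, Alpk3, Tcap, Cryab, Flnc and Mypn.

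**Figure D4:**
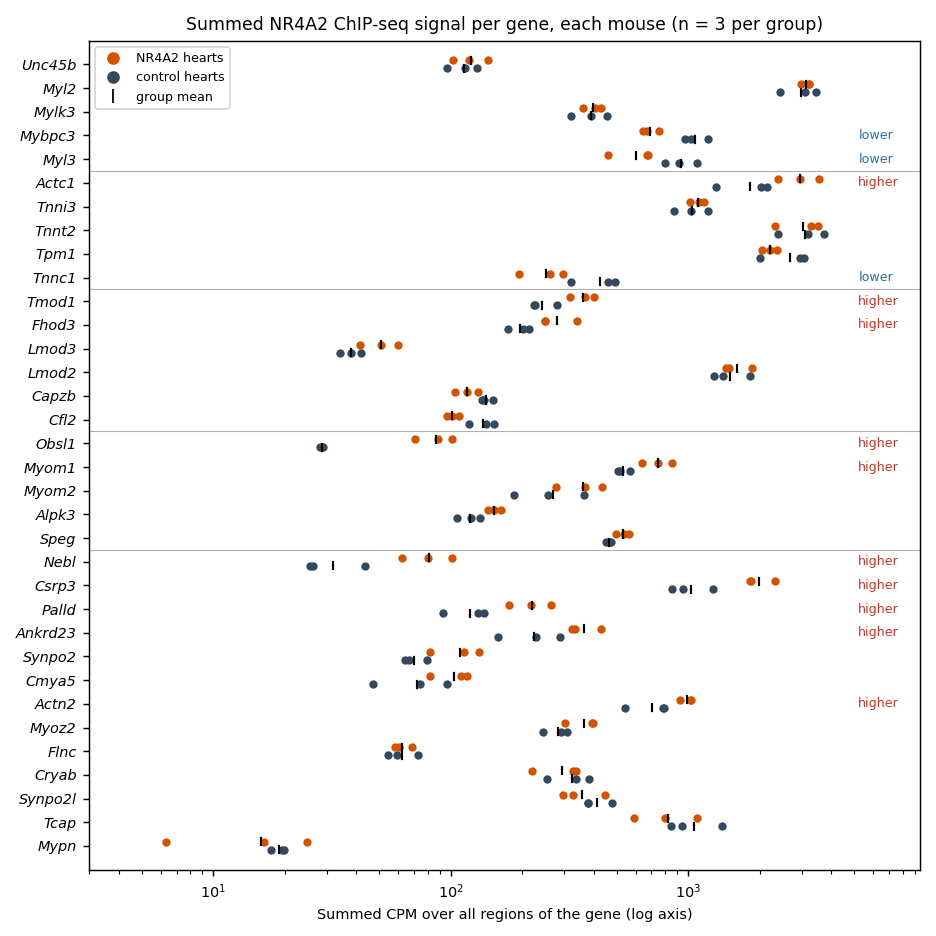
Summed CPM over all regions of each of the 34 genes, on a log axis; orange points are NR4A2 hearts, dark points control hearts (n = 3 each), ticks the group means, and the words at the right mark genes called higher or lower by limma. Csrp3, Obsl1 and Nebl show separated groups with NR4A2 hearts higher, and Mybpc3, Myl3 and Tnnc1 separated groups with NR4A2 hearts lower.

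Signal summed per gene was high at the sarcomere genes in both groups, and the median signal over single regions was not. The median member had a summed 319 CPM over the 6 mice, against 81.7 CPM for all genes with a region, but over more regions per gene, as given above. Taken singly, member regions had a lower median, 27.5 CPM against 37.6 CPM for all other regions. That median mixes positions, since 26.0% of member regions and 48.4% of others lay within 1 kb of a gene end. There the medians were 70.3 CPM for members and 55.7 CPM for others. Inside genes but over 1 kb from their ends they were 23.6 and 25.8 CPM, and from 1 to 10 kb outside 25.0 and 26.9 CPM. The 215 regions held 2.47 ± 0.21% of all CPM in NR4A2 hearts and 2.26 ± 0.35% in control hearts (SD, n = 3 each), and the values of the groups overlapped. Per kb of region, the densest signal among the strongest regions named above was at Actc1, with 245 CPM per kb, then at Tcap with 209, Myl2 with 205 and Tnni3 with 185, on the mean of all 6 mice. Regions of at least 2 kb made up 10.7% of member regions and 1.39% of all others. No test was made of these differences, since region length and signal go together.

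Calls were also set against the position of a region in its gene. For member regions, distances were to the member gene alone, even where another gene lay nearer. For other regions the nearest end of any gene within 10 kb was used. The position classes are therefore not defined alike for members and others. Ends are those of the RefSeq span, so annotated starts inside a span do not count as ends. Within 1 kb of a gene end, 9 of 56 member regions (16.1%) were called higher, against 178 of 8063 others (2.21%). These 9 regions lay at Ankrd23, Csrp3, Actc1, Actn2 and Myl2. Inside genes but over 1 kb from their ends, 22 of 123 member regions (17.9%) were called higher, against 23.6% of others, and from 1 to 10 kb outside genes 7 of 36 (19.4%), against 20.8%. Lower calls near gene ends numbered 5 of 56 (8.93%), against 3.99% of others. Among regions of at least 2 kb near gene ends, 5 of 15 member regions and 21 of 147 others were called higher. From 500 bp to 2 kb, 4 of 25 member regions (16.0%) were called higher, against 80 of 4088 others (1.96%). These 4 regions lay at Ankrd23 and Actc1 alone. The Ankrd23 calls at chr1:36527883-36529526, with Cnnm3 as the nearest gene, and at chr1:36529663-36530359 were lost with some mice left out. Under 500 bp, 0 of 16 member regions near a gene end were called in either direction. These shares are descriptions of regions that share genes and libraries, and the differences between them were not tested.

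**Figure D5:**
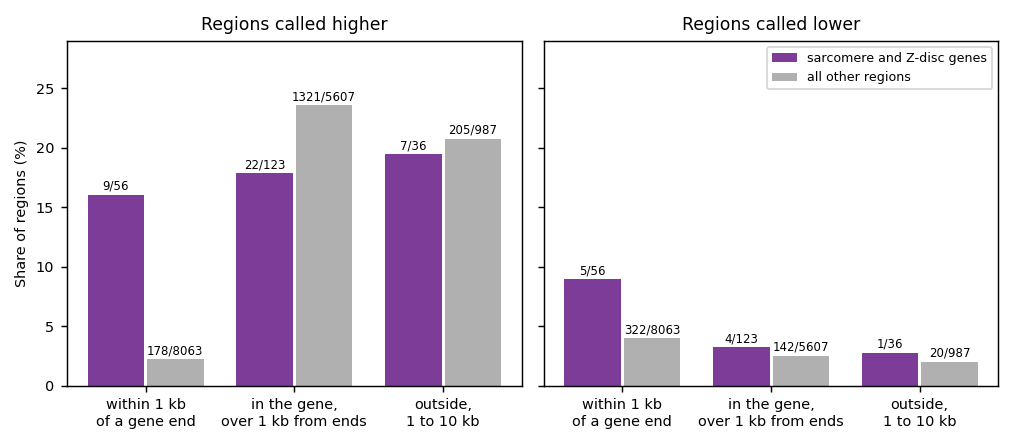
Share of regions called higher (left panel) and lower (right panel), in percent, by distance from a gene end, with called and total regions above each bar; purple bars are regions of sarcomere and Z-disc genes and grey bars all other regions within 10 kb of a gene. For higher calls the bars differ most within 1 kb of a gene end, 16.1% against 2.21%. Distances are to the member gene alone for purple bars and to the nearest of all genes for grey bars.

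Whether the signal moved between the ends and the rest of a gene was asked with a ratio taken within each library, in which the scaling between libraries cancels except for the added 1 CPM. The ratio sets the CPM of regions over 1 kb from the ends of a gene against the CPM of regions within 1 kb of them. Ends are those of the RefSeq span. Regions over annotated starts inside a span, as at Myom1 and Mylk3, therefore counted as away from the ends. Of the 30 members with both kinds of region, 2 had a higher ratio in NR4A2 hearts and 0 a lower one, where 10% of the 3761 genes tested were called higher and 0.798% lower. At Capzb the log2 ratio was -1.73, -2.11 and -1.49 in the NR4A2 hearts and -3.49, -3.87 and -4.87 in the control hearts, a difference of 2.30 ± 0.45 (SE; limma adjusted p = 0.0107). At Obsl1 it was -0.76, 0.70 and 0.83 in the NR4A2 hearts and -1.46, -2.37 and -1.46 in the control hearts, a difference of 2.02 ± 0.46 (SE; limma adjusted p = 0.0189). Neither pair of groups overlapped, yet both calls were lost with some mice left out. The only region away from the ends of Obsl1 was the upstream region nearest to Inha, with 7, 4 and 4 reads in the control hearts, so the ratio does not describe signal inside Obsl1. At Csrp3 the difference was 0.05 ± 0.31 and at Mybpc3 -0.02 ± 0.26 (SE), and neither was called. The median difference was 0.35 over the 30 members and 0.19 over all genes tested.

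The 250 bases upstream of annotated starts were searched for 7 motifs on both strands. RefSeq promoter windows were matched for 30 of the 35 members, 45 windows in all; Cryab, Fhod3, Lmod3, Myom2 and Tcap were not matched. A region overlapped a promoter window of 26 members, and such a region was called higher at 7 (26.9%) and lower at 1 (3.85%). Of all 7370 genes with a promoter window under a region, 1.38% had one called higher and 4.40% one called lower. The 7 members were Csrp3, Ankrd23, Actc1, Actn2, Myl2, Myom1 and Palld. The promoter calls at Actc1, Actn2, Myl2 and Myom1 were each lost with some mice left out, and those at Csrp3 and Ankrd23 were not. Near gene ends (up to 1 kb away) the regions of members had a median length of 974.5 bp, against 518 bp for all others. Gene ends were taken there as for the position classes, which are not defined alike for members and others. The difference in shares was not tested. The full NBRE element AAAGGTCA of NR4A receptors was found in 0 of the 45 windows and in 1.34% of all 32851 windows, and the shorter AGGTCA, which every NBRE contains, in 4 (8.89%) and 14.0%. The TEAD motif CATTCC was found in 13 windows (28.9%), against 12.6% of all, the GATA motif AGATAA in 9 (20.0%), against 9.99%, the MEF2 motif in 7 (15.6%), against 2.92%, and the CArG box in 4 (8.89%), against 1.47%. The E-box CANNTG was found in 35 windows (77.8%), against 66.2%. A match of letters is a description and no site of binding, and windows of the same gene can overlap.

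Another 62 genes of the sarcomere and Z-disc, which include the titin and myosin heavy chain genes but were no members, were counted by the same rule. Of these, 54 had a region. Of their 406 regions 43 (10.6%) were higher and 7 (1.72%) lower, against 14.7% and 3.17% of all regions. Ttn alone held 183 of the 406 regions, with 9 higher and 0 lower. Summed signal was higher at 11 of the 54 genes (20.4%) and lower at 3 (5.56%), against 6.94% and 3.15% of all genes with a region. Myh6 and Myh7 shared their 4 regions and were counted as separate genes. The highest folds of summed signal, both called, were at Myl7, encoding the atrial regulatory light chain, with 37 ± 15.2 CPM in NR4A2 hearts and 2.9 ± 1.68 CPM in control hearts (SD, n = 3 each), and at Fhl1, encoding a LIM protein of the sarcomere, with 35.6 ± 14.7 CPM in NR4A2 hearts and 8.54 ± 3.59 CPM in control hearts. Myl7 and Fhl1 held 1 region each. The Myl7 control mean rests on few reads, since 1 read was worth 0.973 to 1.81 CPM in the control hearts. The lowest called folds of summed signal were at Capza2, encoding an α subunit of CapZ, with a log2 fold change of -0.82 (limma adjusted p = 0.019), and Tnnc2, encoding fast troponin C, with -0.78 (limma adjusted p = 0.0213).

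Reads in the regions numbered 637635 to 1035856 in the NR4A2 hearts and 549700 to 1027394 in the control hearts, so that 1 read was worth 0.955 to 1.81 CPM. Pairs of libraries, compared over all regions on the log2(CPM + 1) scale, had a correlation of 0.824 to 0.857 among NR4A2 hearts, 0.877 to 0.913 among control hearts and 0.645 to 0.760 between the groups. A region was held by 3 of 4 marker genes of working heart muscle (17 regions, 3 higher and 2 lower), by 3 of 7 fibroblast markers (4 regions, 0 called), by 5 of 6 endothelial markers (14 regions, 1 higher and 2 lower), by 2 of 5 smooth muscle markers, by 1 of 6 leukocyte markers and by 1 of 5 skeletal muscle markers. The part of the cell makeup in the results was not tested.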

How the data were processed

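NR4A2 ChIP-seq signal was analysed in 6 libraries, 1 per mouse. The authors deposited a table of 16884 regions on 20 chromosomes with the CPM of each mouse; the submitters' processing notes name BWA and the build GRCm38 (mm10), and no source used here gives the peak caller, the counter or any filter. Every deposited CPM value was a whole multiple of the value of 1 read in its column (100% of values within 0.001 read), so whole reads could be recovered. Per the labels' protocols, 200 ng of fruit fly chromatin was added to each reaction; no source used here says whether it entered the values. The authors' own log2 fold change, p-value and FDR are in the deposited table too, and their call of up or down was an alternative.

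limma (version 3.58.1, in R 4.3.3, trend and robust) was fitted on log2(CPM + 1) of all 16884 regions, on summed CPM of 11154 genes and on the within-library ratio of 3761 genes, with genotype as the only term and Benjamini-Hochberg adjustment over each whole table. Fold changes are on the log2(CPM + 1) scale, which understates those of weak regions. No region was filtered out. edgeR (version 4.0.16) and DESeq2 (version 1.42.0) on the recovered reads were alternatives. Regions in the text are the region with the smallest p of each member (if called and of at least the median signal, 37.4 CPM), the strongest regions of the members with most signal, and the strongest regions of uncalled members; all other regions with printed values, among them those at Obsl1, Myoz2, Capzb, Palld, Speg and Synpo2 and further regions at Mybpc3, Myl2, Tnnt2 and Tnnc1, were added after their values were seen. Gene spans and promoter windows are RefSeq's for GRCm38.p6; exons and introns were not told apart. Members and lists were chosen with earlier results of these data known. Each mouse is a separate animal per the labels, and n = 3 in each group.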

Additional observations from a re-analysis of the deposited data

How the results depend on the processing

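Calls at the sarcomere genes moved most when scaling was left out and with the filter on weak regions. Median-ratio rescaling kept 47 of the 48 calls. With no scaling for depth, 6 regions were higher and 0 lower, at 6 and 0 genes, and summed signal was called at 0 genes in either direction. With regions of at least median signal only, 13 regions were higher and 6 lower, 8 genes held a higher region, summed signal was higher at 5, and the within-gene ratio at 0; 21 of the 48 calls were not tested there. With DESeq2, 6 regions were lower. By the authors' call 36 member regions were up and 8 down, and 3 genes held a lower region. That call does not rest on FDR alone. Regions at Synpo2l and Tpm1, with authors' log2 fold changes of -0.60 and -0.53, were labelled unchanged at an FDR under 0.05. A pseudocount of 5 gave 4 higher ratios in place of 2. With 1 mouse left out at a time, higher regions numbered 24 to 38, lower regions 4 to 16, genes with a higher region 14 to 17, genes with a lower region 3 to 6, higher summed signals 9 to 11, lower ones 3 to 4, and higher ratios 0 to 4. Member regions held 2.21% of CPM in NR4A2 hearts by gene span alone and 2.25% by nearest gene only. No called value changed sign; the uncalled strongest regions of Tnnt2, Myl2 and Tnni3 had folds on both sides of 0 with a mouse left out. Mouse numbers did not pair the samples (correlations of same-numbered deviations -0.066, 0.061 and 0.033); with the replicate block there were 43 higher and 12 lower regions. Since 1 read was worth 0.955 to 1.81 CPM, weak regions rest on few reads.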
